A study of Mus musculus with 4 samples.

Results

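The 7 genes described here act after a lipoprotein particle has been taken up by a cell: they remove its receptors, carry its cholesterol out of the lysosome and through the cytosol, and store it as ester. They are Mylip, Npc1, Npc2, Stard4, Stard5, Soat1 and Soat2, chosen by these functions with earlier results of these data known, and all 7 were found by symbol among the 23920 genes of the deposited table. They were compared between livers of SREBP1c knockout mice (KO, 2 libraries) and wild-type mice (WT, 2 libraries). All mice were C57BL/6 males of 12 weeks whose livers were taken after a 24 h fast and 12 h of refeeding. The labels call the genotypes SREBP1c KO and SREBP1c WT, and how the knockout was made is not given in the sources used here. Nor is it stated whether the libraries are from separate animals, and p-values therefore describe the spread among these 4 libraries only, which may be technical.

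Low-density lipoprotein is taken into hepatocytes by receptor-mediated endocytosis, and its cholesteryl esters are split in the lysosome. The soluble protein NPC2 binds the freed cholesterol and hands it to NPC1 in the lysosomal membrane, and loss of either causes Niemann-Pick disease type C. Cholesterol that leaves the lysosome moves between membranes on carriers such as the START-domain proteins, and the excess is esterified in the endoplasmic reticulum by the sterol O-acyltransferases. Sterol in that membrane holds back the SREBP transcription factors. SREBP2 mainly drives cholesterol synthesis and uptake, while SREBP1c, the product of Srebf1 that the KO label names, mainly drives fatty acid synthesis.

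Levels are FPKM as the authors computed them, that is, fragments scaled by transcript length and by the number of mapped fragments. Differences are log2(FPKM + 1) in KO minus that in WT, a scale on which low genes seem to change less than they do. They were tested with limma over the 9820 genes with a mean of at least 1 FPKM, rows of a gene summed, with Benjamini-Hochberg adjustment over all of them and a threshold of 0.05. Each of the 7 genes has 1 row. Steps among low values put the depth at roughly 20.5 to 22.6 M (mega) fragments per library. Srebf1, the targeted gene, had 8.63 and 6.97 FPKM in KO, against 63.7 and 58.2 FPKM in WT (log2 difference −2.82, SE 0.13, adjusted p = 0.00172). In all, 7 of the 9820 genes passed, 1 higher and 6 lower in KO. With 1 library left out, the count became 306 (KO replicate 1 left out), 117 (KO replicate 2), 1 (WT replicate 1) or 4 (WT replicate 2).

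Because the deleted protein binds promoters, the 250 bases before the start of transcription are shown for the 4 of the 7 genes found in the RefSeq promoter table (GRCm38.p6). They are chr12:84773113-84773362 on the minus strand, chr7:83631767-83632016 on the plus strand, chr13:45389492-45389741 on the plus strand and chr1:156474329-156474578 on the minus strand. Each is written 5′ to 3′ along its gene, and capitals mark a CCAAT box (CCAAT, the motif of NF-Y, a partner of the SREBPs) or a GC box (GGGCGG, the motif of Sp1), on either strand.
Npc2: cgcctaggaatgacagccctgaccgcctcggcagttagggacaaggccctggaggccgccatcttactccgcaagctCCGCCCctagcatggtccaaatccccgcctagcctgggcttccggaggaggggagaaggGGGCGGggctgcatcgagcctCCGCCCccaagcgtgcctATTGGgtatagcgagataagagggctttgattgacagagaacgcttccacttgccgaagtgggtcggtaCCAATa
Stard5: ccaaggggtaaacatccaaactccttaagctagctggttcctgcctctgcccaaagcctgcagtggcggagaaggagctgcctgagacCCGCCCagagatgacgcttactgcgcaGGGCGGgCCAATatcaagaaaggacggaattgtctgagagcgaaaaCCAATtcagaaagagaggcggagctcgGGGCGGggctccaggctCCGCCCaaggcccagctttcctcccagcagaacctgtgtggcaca
Mylip: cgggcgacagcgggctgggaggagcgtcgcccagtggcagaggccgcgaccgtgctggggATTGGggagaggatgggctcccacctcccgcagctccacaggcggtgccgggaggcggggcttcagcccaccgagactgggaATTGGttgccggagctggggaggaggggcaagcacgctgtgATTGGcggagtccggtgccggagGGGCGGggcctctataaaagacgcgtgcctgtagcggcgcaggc
Soat1: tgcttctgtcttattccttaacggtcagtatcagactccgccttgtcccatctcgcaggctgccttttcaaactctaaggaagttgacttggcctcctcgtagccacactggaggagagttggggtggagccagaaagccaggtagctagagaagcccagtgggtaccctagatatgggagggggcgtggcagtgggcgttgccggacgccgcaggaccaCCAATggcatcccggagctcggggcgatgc
A CCAAT box was found in each of the 4, against 33.8% of 32851 promoters of the same length. A GC box was found in Npc2, Stard5 and Mylip, against 32.7% of all promoters. Mylip held 3 CCAAT boxes, 190, 108 and 67 bases before the start, and Npc2 held 2, 75 and 6 bases before it. Stard5 held 4 GC boxes, and Soat1 a lone CCAAT box 30 bases before its start. A sterol regulatory element (TCACNCCAC) and an E-box (CACGTG) were searched too, on both strands, and none of the 4 windows held these letters. They occur in 1.05% and 6.02% of all promoters. The windows of Npc1 and of Stard4, a known SREBP2 target, are not among the 4, and their letters are not given here. No match overlapped another motif, and a match describes letters, not a bound site.

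None of the 6 genes that could be tested passed the threshold, where 0.0713% of all genes tested did (0.0102% higher and 0.0611% lower in KO). Their limma adjusted p ran from 0.570 for Npc1 to 0.924 for Stard5, and 1 of the 6, Npc1, had an unadjusted p under 0.05, where 7.75% of all genes did. In 3 of the 7 the libraries of the groups did not overlap: Npc2 and Stard4 were above WT in both KO libraries, and Npc1 was below it in both. Among all genes tested 22.4% lay above and 16.4% below WT in this way, 38.7% together. The other 4, Stard5, Soat2, Mylip and Soat1, overlapped between the groups. The median difference of the 6 was 0.15, and that of all genes tested was 0.02.

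**Figure D1:**
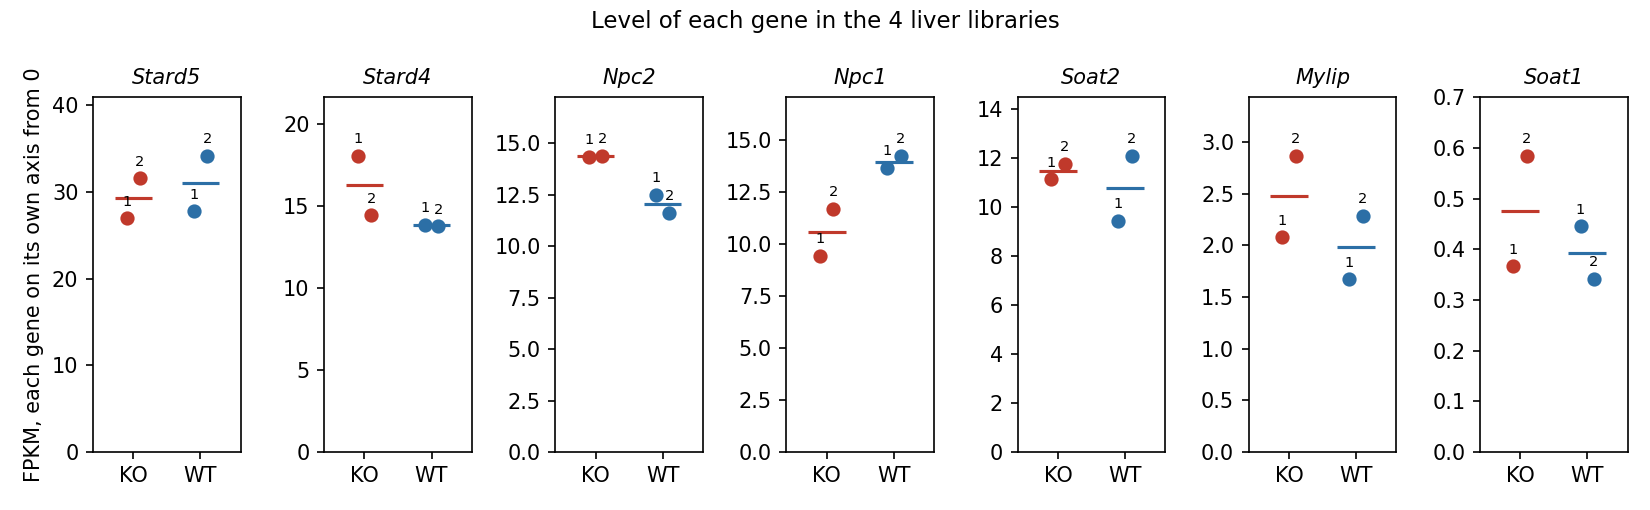
FPKM of each of the 7 genes in KO (red, left) and WT (blue, right) libraries, each gene on its own axis from 0; points are libraries numbered by replicate and lines are group means of 2. The groups are apart in Stard4, Npc2 and Npc1, with Npc1 lower in KO, and they overlap in the other 4.

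The pair of genes of lysosomal export, Npc1 and Npc2, lay on opposite sides. Npc1 (NM_008720, chromosome 18, 12189694 to 12236506, GRCm38.p6) had 9.43 and 11.7 FPKM in KO, against 13.6 and 14.2 FPKM in WT. Neither KO library reached the WT range, and KO replicate 1 was the lowest. The means were 10.5 ± 1.59 FPKM in KO and 13.9 ± 0.416 FPKM in WT (SD, n = 2 each), a ratio of 0.757. The log2 difference was −0.38 (SE 0.13, limma 95% interval −0.69 to −0.06, adjusted p = 0.570). Of all genes tested 93.1% had a smaller difference in size. The interval is that of a single gene, before adjustment over all genes, so it can lie on 1 side of 0 while the adjusted p misses the threshold. With each library left out in turn the difference stayed between −0.52 and −0.24.

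Npc2 (NM_023409, chromosome 12, 84754559 to 84773112) had 14.4 and 14.4 FPKM in KO, against 12.5 and 11.6 FPKM in WT. Its KO libraries lay within 0.1 FPKM of each other and both stood above WT. The means were 14.4 ± 0.0278 FPKM in KO and 12.1 ± 0.636 FPKM in WT (SD, n = 2 each), a ratio of 1.19. The log2 difference was 0.24 (SE 0.10, 95% interval −0.01 to 0.49, limma adjusted p = 0.644). It ran from 0.19 to 0.29 with each library left out. The KO spread of Npc2 was narrower than that of Npc1, and the difference did not pass the threshold either.

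Within each library, which cancels its scaling, the ratio of Npc1 to Npc2 FPKM was 0.656 and 0.810 in KO, against 1.09 and 1.22 in WT. By FPKM, Npc1 was the lower of the pair in both KO libraries and the higher in both WT libraries. Which of the pair is higher depends on the transcript lengths the authors used, while the shift of the ratio between libraries does not. This ratio was chosen after the values were seen and was not tested; for 2 against 2 libraries the smallest two-sided p of an exact permutation is 0.33.

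**Figure D2:**
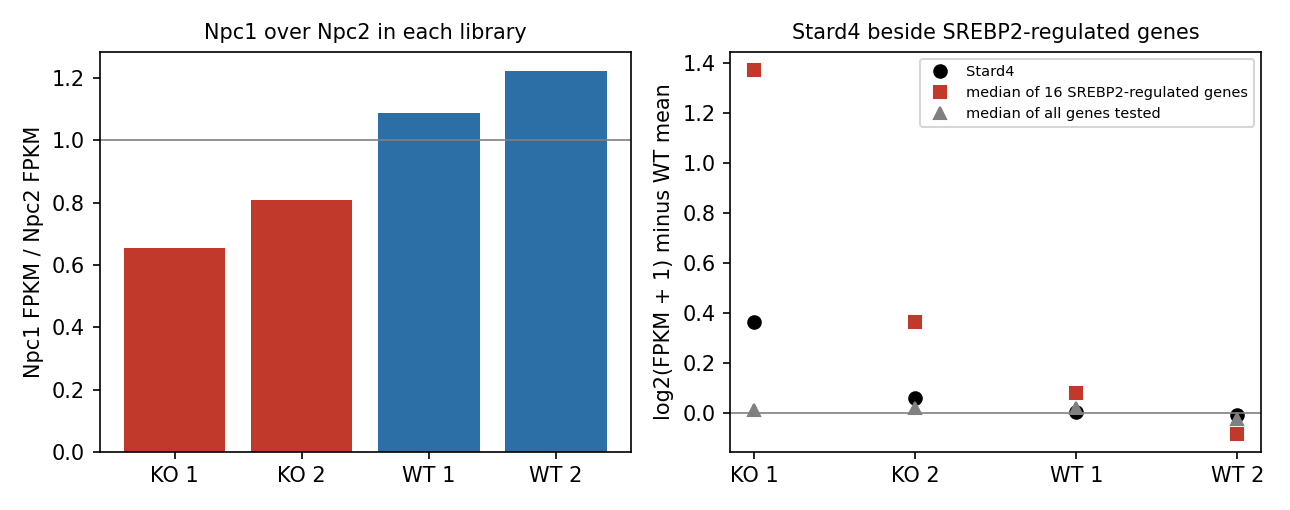
Left, Npc1 FPKM divided by Npc2 FPKM in each library (bars from 0; KO red, WT blue), under 1 in both KO libraries and over 1 in both WT libraries. Right, log2(FPKM + 1) minus the WT mean for Stard4, for the median of 16 SREBP2-regulated genes and for the median of all genes tested: KO replicate 1 is the highest library for Stard4 and for the SREBP2-regulated genes.

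Npc2 and Soat1 are also expressed by macrophages, and 11 Kupffer cell and macrophage markers are therefore set beside them. Their summed level was 168 and 265 FPKM in KO, against 193 and 155 FPKM in WT. KO replicate 2 was the highest library and KO replicate 1 lay between the WT libraries. Of the 11 markers 2, C1qa and Timd4, were higher in both KO libraries, where 22.4% of all genes tested were. None of the 11 was at 0, and the Kupffer cell marker Clec4f had 19.5 and 35.2 FPKM in KO, against 27.0 and 20.6 FPKM in WT. The part of macrophage RNA in the level of Npc2 was not tested. In bulk tissue, fewer cells of a type and less RNA per cell cannot be told apart.

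Of the START-domain carriers, Stard5 was the most abundant of the 7 genes and Stard4 stood above WT in KO. Stard4 (NM_133774, chromosome 18, 33199138 to 33213862), a cytosolic sterol carrier and a known SREBP2 target, had 18.1 and 14.4 FPKM in KO, against 13.9 and 13.8 FPKM in WT. KO replicate 1 stood clear of the other libraries, while KO replicate 2 was less than 1 FPKM above WT. The means were 16.2 ± 2.56 FPKM in KO and 13.8 ± 0.0793 FPKM in WT (SD, n = 2 each), a ratio of 1.18. The log2 difference was 0.21 (SE 0.13, 95% interval −0.11 to 0.53, limma adjusted p = 0.744), but 0.06 without KO replicate 1 and 0.36 without KO replicate 2.

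Stard5 (NM_023377, chromosome 7, 83632017 to 83642328), a close relative of Stard4 that binds cholesterol, had 27.0 and 31.6 FPKM in KO, against 27.8 and 34.2 FPKM in WT. The groups overlapped, and replicate 2 was the higher library in each. The means were 29.3 ± 3.24 FPKM in KO and 31.0 ± 4.53 FPKM in WT (SD, n = 2 each). The log2 difference was −0.08 (SE 0.14, 95% interval −0.43 to 0.28, limma adjusted p = 0.924), and its sign turned without KO replicate 1 (0.03) and without WT replicate 2 (0.07). Stard5 FPKM was 1.49 and 2.19 times that of Stard4 in KO, against 2.0 and 2.49 times in WT. Stard5 was thus above Stard4 in each of the 4 libraries, and the ratios of the groups overlapped.

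The SREBP2-regulated genes give the setting for Stard4. Relative to the WT mean, Stard4 lay at 0.36 in KO replicate 1 and 0.06 in KO replicate 2, while the median of 16 SREBP2-regulated genes lay at 1.37 and 0.37. Both were highest in KO replicate 1, and the distance of Stard4 from WT was the smaller in each KO library. Of these 16 genes 14 had a positive difference, with a median of 0.89 against 0.02 for all genes tested, and none passed over all genes. Sqle, which encodes squalene epoxidase, differed by 1.44 (SE 0.26, limma adjusted p = 0.245). Srebf2, which encodes SREBP2 itself, had 24.2 and 19.7 FPKM in KO, against 13.9 and 14.3 FPKM in WT. Hsd17b7, a sterol synthesis enzyme, differed by 0.90 (adjusted p = 0.432 by limma). Without KO replicate 2, 14 of the 16 passed the limma threshold, each higher in KO. Without KO replicate 1, 5 passed: Sqle, Cyp51 and Hmgcs1 higher, Insig1 and Sc5d lower.

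Of the pair of acyltransferase genes, Soat2 was the more abundant in each library, and neither stood apart between the groups. Soat2 (NM_146064, chromosome 15, 102150415 to 102163469), the acyltransferase of hepatocytes and enterocytes, had 11.1 and 11.8 FPKM in KO, against 9.44 and 12.1 FPKM in WT. Both KO libraries lay between the WT libraries. The means were 11.4 ± 0.449 FPKM in KO and 10.8 ± 1.87 FPKM in WT (SD, n = 2 each), and the log2 difference was 0.09 (SE 0.14, 95% interval −0.25 to 0.43, limma adjusted p = 0.902).

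Soat1 (NM_009230, chromosome 1, 156428108 to 156474328), the more widely expressed acyltransferase, had 0.366 and 0.584 FPKM in KO, against 0.445 and 0.341 FPKM in WT. Its mean of 0.434 FPKM over the 4 libraries was under the minimum of 1 FPKM, so it was not tested. If the authors used a transcript of 8371 bases, as GENCODE has for this accession, these levels stand for about 69 and 100 fragments in KO and 84 and 59 in WT. Counting error alone would then be 9.99% to 13.0% of each value. Soat2 FPKM exceeded Soat1 FPKM 30.4 and 20.1 times in KO, against 21.2 and 35.4 times in WT, so the groups overlapped in this ratio as well. Soat1 was highest in KO replicate 2, the library with the highest macrophage markers, and the part of those cells in it was not tested.

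Mylip (NM_153789, chromosome 13, 45389742 to 45411940) encodes IDOL, an LXR-induced ubiquitin ligase that sends lipoprotein receptors to the lysosome. It had 2.08 and 2.87 FPKM in KO, against 1.67 and 2.29 FPKM in WT. Replicate 2 was the higher library in each group, and the groups overlapped. The means were 2.48 ± 0.557 FPKM in KO and 1.98 ± 0.434 FPKM in WT (SD, n = 2 each). The log2 difference was 0.22 (SE 0.16, 95% interval −0.18 to 0.62, limma adjusted p = 0.788), and leaving out KO replicate 1 or KO replicate 2 made it 0.38 or 0.06. Mylip thus had the widest interval of the 6 tested genes, and 16.9% of all genes tested had a lower mean level.

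**Figure D3:**
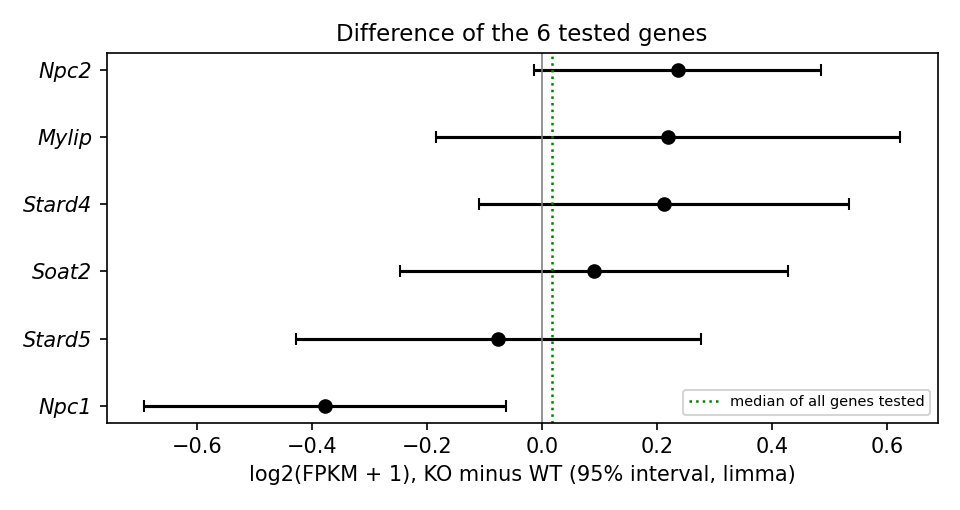
Difference in log2(FPKM + 1), KO minus WT, for the 6 tested genes, with limma 95% intervals before adjustment (bars) and the median of all 9820 genes tested (dotted line). Npc1 is the lowest, at −0.38, and its interval alone lies on 1 side of 0; Npc2 lies at 0.24 and Mylip at 0.22.

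Ordered by their mean over the 4 libraries, the levels ran from Stard5 at 30.1 FPKM through Stard4 at 15.0, Npc2 at 13.2, Npc1 at 12.2, Soat2 at 11.1 and Mylip at 2.23 to Soat1 at 0.434 FPKM. Stard5 stood above the range of Stard4 in each library. Stard4, Npc2, Npc1 and Soat2 overlapped each with its neighbour over the 4 libraries, so their order is not fixed beyond that spread. Mylip lay below the range of Soat2, and Soat1 below that of Mylip. The lysosomal, START-domain and Soat2 transcripts were thus of moderate abundance, with 60.5% of all genes tested below Soat2 and 80.4% below Stard5.

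Npc1 and Mylip were the members whose log2 values ranged by at least 0.5 over the libraries, and for these the genes with the nearest profile were sought among 6057 genes with a mean of at least 5 FPKM. Likeness was the Euclidean distance between centred log2(FPKM + 1) values over 4 libraries. Of the 6057, genes with predicted-type names, such as those ending in Rik, were left out before ranking and counting. Nearest to Npc1 were Cpeb2 (distance 0.026), Cir1 (0.046) and Qrich1 (0.083). Cpeb2, for example, had 4.37 and 5.44 FPKM in KO, against 6.57 and 6.70 FPKM in WT. Nearest to Mylip were Rnf167 (0.031), Map1lc3b (0.040) and Vrk3 (0.053). Within a distance of 0.1 there were 6 genes for Npc1 and 23 for Mylip.

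Genes that work beside the 7 were followed in 8 lists, chosen with earlier results of these data known. Of 106 such genes that the table holds, 91 were tested and none passed the limma threshold, where 0.0713% of all genes tested did. In 16 of the 91 the limma unadjusted p was under 0.05, where that held for 7.75% of all genes tested. Of those 16, 10 were SREBP2-regulated genes. Without KO replicate 1, Sqle, Cyp51 and Hmgcs1 differed by 1.03, 0.625 and 0.626, and without KO replicate 2 by 1.84, 1.65 and 1.70. Beside the SREBP2-regulated genes, Lpcat3 lay at −0.64 and Osbpl9 at 0.64 without KO replicate 1, and Tmem97 at 0.655 without KO replicate 2. Each of these fits leaves 1 KO library.

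At the cell surface, none of 13 tested endocytic receptors and adaptors passed or had an unadjusted p under 0.05 (median 0.03; 9 positive, 4 negative). Epn1, the adaptor epsin 1, had 51.7 and 54.7 FPKM in KO, against 44.5 and 47.7 FPKM in WT. Scarb1, the receptor of high-density lipoprotein, had 79.7 and 82.6 FPKM in KO, against 67.5 and 79.2 FPKM in WT. Both were higher in each KO library, the 2 of 13 (15.4%) for which the groups did not overlap, where 38.7% of all genes tested did not. Cltc, clathrin heavy chain, overlapped, with 38.0 and 41.4 FPKM in KO, against 46.2 and 39.9 FPKM in WT. Of 12 tested genes of receptor recycling and degradation none passed or had an unadjusted p under 0.05 (median 0.07). Ube2d1 and Ube2d2a, which encode ubiquitin-conjugating enzymes of the family that works with IDOL, differed by 0.22 and 0.13 (limma adjusted p = 0.701 and 0.816). Of the same family, Ube2d3 differed by −0.07 and overlapped between the groups, and Ube2d2b was under 0.1 FPKM in each library. Ccdc22, a subunit of a receptor-recycling complex, differed by 0.12.

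Lysosomal and endosomal genes did not follow Npc1 as a list: of 14 tested none passed, 8 were positive and 6 negative, with a median of 0.09. The groups did not overlap in 10 of the 14, 5 on either side, where 38.7% of all genes did not. Anxa6, which encodes annexin A6, a membrane-binding protein of endosomes, lay on the same side as Npc1, with 37.5 and 37.1 FPKM in KO, against 52.2 and 49.8 FPKM in WT. Its log2 difference of −0.44 had the smallest unadjusted p of the list (0.0048; limma adjusted p = 0.371). Tmem97, an NPC1-binding membrane protein and a known SREBP2 target, had 96.0 and 63.5 FPKM in KO, against 59.0 and 62.3 FPKM in WT. Like Stard4, it was far from WT in KO replicate 1 alone. Rab9, a late endosome GTPase, differed by −0.16 (adjusted p = 0.753 by limma). Lipa, the lysosomal lipase that frees the cholesterol, overlapped, with 67.7 and 62.3 FPKM in KO, against 74.7 and 67.0 FPKM in WT; it was named after its values were seen.

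Other START-domain genes were listed together with a relative of Stard3 that lacks this domain. Among the 11 tested, 4 were positive and 7 negative (median −0.03), and none passed. Dlc1, whose product has a START domain, had 5.93 and 6.31 FPKM in KO, against 8.40 and 8.11 FPKM in WT (log2 difference −0.38, limma adjusted p = 0.454). Col4a3bp, the ceramide carrier CERT, differed by −0.29 and Stard3, the late endosomal cholesterol carrier, by 0.21 (adjusted p = 0.644 and 0.733 by limma). Star, the founding member of the family, was under 1 FPKM in each library. A further list held other sterol carriers and membrane proteins that tether such carriers. None of its 12 tested genes passed (median −0.10, 4 positive and 8 negative). Osbpl1a, a sterol sensor of late endosomes, had 29.5 and 28.1 FPKM in KO, against 36.6 and 34.8 FPKM in WT (log2 difference −0.30, limma adjusted p = 0.570). Gramd1c and Gramd1a, which carry cholesterol from the plasma membrane to the endoplasmic reticulum, lay on opposite sides, at −0.30 and 0.23.

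Of 6 tested genes of ester formation and hydrolysis beside Soat1 and Soat2 none passed or had an unadjusted p under 0.05 (median −0.07; 1 positive, 5 negative). Nceh1, a neutral cholesteryl ester hydrolase, had 3.59 and 3.61 FPKM in KO, against 4.03 and 4.04 FPKM in WT. Aadac, a related esterase, had 342 and 299 FPKM in KO, against 374 and 347 FPKM in WT. Both were lower in each KO library, the 2 of 6 (33.3%) for which the groups did not overlap, where 38.7% of all genes tested did not. Their differences were only −0.13 and −0.17. Lcat, which esterifies cholesterol in plasma, overlapped, with 255 and 321 FPKM in KO, against 254 and 277 FPKM in WT. LXR-regulated genes, the class to which Mylip belongs, were listed together with the genes of the LXR receptors themselves. The list lay on both sides, with 4 of 7 tested positive and a median of 0.11. Lpcat3, a phospholipid acyltransferase, differed by −0.46, Abcg5, a sterol exporter, by 0.56, and Nr1h2, which encodes LXRβ, by 0.24 (limma adjusted p = 0.527, 0.576 and 0.644).

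**Figure D4:**
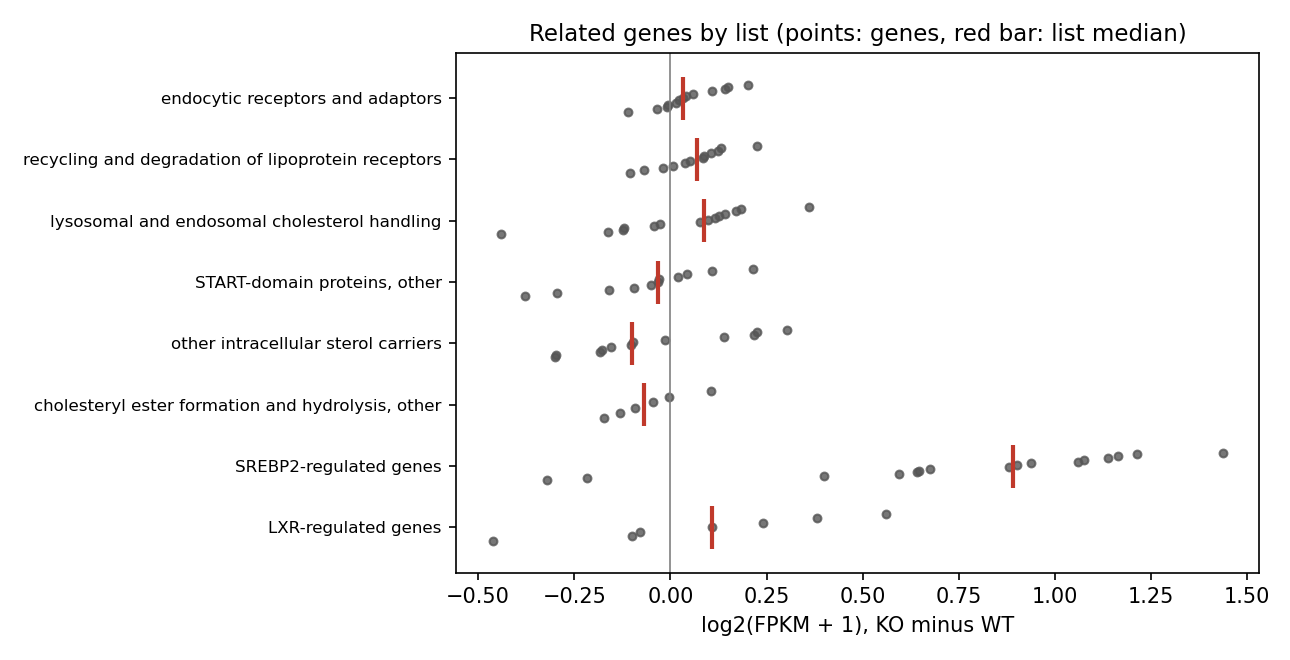
Difference in log2(FPKM + 1), KO minus WT, for the tested genes of the 8 lists; points are genes and red bars are list medians. The SREBP2-regulated genes have a median of 0.89, while the medians of the other 7 lists lie between −0.10 and 0.11.

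Other contents of the libraries moved as follows. All 8 hepatocyte markers were present, summing to 34375 and 34035 FPKM in KO, against 32723 and 36089 FPKM in WT. Single markers differed from this sum: 2 were higher and 3 lower in both KO libraries, where 22.4% and 16.4% of all genes tested were. Among the 3, Cps1 had 362 and 400 FPKM in KO, against 620 and 621 FPKM in WT. The 12 acute phase genes summed to 2894 and 10839 FPKM in KO, against 3400 and 4549 FPKM in WT, so that KO replicate 2, the highest library for Mylip and Soat1, stood apart. Cholangiocyte markers summed to 50.2 and 41.7 FPKM in KO, against 25.4 and 23.5 FPKM in WT, mostly through Spp1. Of the 5, 4 were higher in both KO libraries, where 22.4% of all genes tested were. Among these 4, Krt7 and Epcam were under 1 FPKM in each library. Of 6 exocrine pancreas markers 4 were at 0 in all libraries, and Amy2a5 was at 0.00736 FPKM or less. Cela1 had 25.4 and 14.8 FPKM in KO, against 16.6 and 13.7 FPKM in WT. The part of these contents in the levels of the 7 genes was not tested.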

How the data were processed

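Liver RNA libraries were grouped by their titles. The authors deposited 1 table of FPKM, a value for every RefSeq transcript in each library, per the file headers. The submitters' processing notes name Bowtie, TopHat and mm10. Not given in the sources used here are the FPKM program, the annotation release and whether strand was used. The deposited table holds 33170 rows of 23920 genes, and 5009 genes have several. Rows were summed per gene number, and coordinates came from RefSeq (GRCm38.p6, the assembly of mm10). Genes with a mean of at least 1 FPKM entered a fit with limma 3.58.1 (intensity trend; R 4.3.3) on log2(FPKM + 1), without a block, and the test was first run on simulated data. FPKM hides the fragment number: depth was estimated from the step of 1 fragment in single-row genes with GENCODE transcript lengths, and of the low values 48.8% to 50.4% were whole fragments within a tolerance of 0.1, so no count test was run. The length the authors used can differ.

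The members and lists were chosen with earlier results of these data known. The genes named by rule were the 7 members, Srebf1, in each list those past the threshold or otherwise the 3 with the smallest p, and the 3 nearest profiles for members ranging by at least 0.5. Lipa, Star, Ube2d3, Ube2d2b, the cell type markers and the related genes given with a library left out were named after their values were seen. Stard9 and Ly6g were not matched in the table. The alternatives were other pseudocounts (0.1 and 0.5), other filters (none, or a mean of 5 FPKM), scaling by upper quartile or quantiles, a prior without trend or a robust one, rows as deposited, the replicate number as a block, a threshold of 0.1 and each library left out. Further software was pandas 2.3.3 and numpy 2.4.6 in python 3.11.15, with matplotlib 3.10.9 for plots.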

Additional observations from a re-analysis of the deposited data

How the results depend on the processing

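No alternative brought any of the 6 tested members past the threshold: adjusted p ran from 0.183 (Npc1) to 1 over all of them. Npc1 stayed lower in KO (−0.52 to −0.24), and Npc2 (0.19 to 0.29), Stard4 (0.06 to 0.36) and Mylip (0.06 to 0.38) stayed higher, under every alternative run. The sign turned with a library left out for Stard5 (−0.221 to 0.0691), Soat2 (−0.0728 to 0.253) and Soat1 (−0.0273 to 0.186); Soat1 was 0.20 with a pseudocount of 0.1. The count of 7 genes called was 11 with a pseudocount of 0.1, 0 without a filter, 3 with a minimum of 5 FPKM, 4 with quantile scaling, 15 with a robust prior and 1 to 306 with a library left out; the cause was not tested. Of the related genes none was called under the alternatives that kept all 4 libraries. The replicate number as a block gave 19 calls and changed no call of a member. Deviations of same-numbered libraries correlated at 0.167 over 9820 genes, and with 2 pairs the numbers were not read as pairing. A library left alone in its group is assumed to vary like those of the other group. Mylip fell under the minimum of 5 FPKM, and Soat1, untested, was not recomputed with another prior, quantile scaling or rows as deposited. With 2 libraries a group, the 95% intervals of the tested members reach 0.43 to 0.69 in size at their farther end.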
